A study of Mus musculus with 20 samples.

Results

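The genes examined here are 45 genes whose products build the mitotic spindle, tie chromosomes to it, separate them and then cleave the cell. They are a named list put together by role in mitosis, with no threshold on signal but with earlier results of these data known. Each was represented by the probe set of that gene alone with the highest mean log2 signal. All 45 were measured, out of 18193 genes on the array. The values come from 20 Affymetrix arrays of 1 colour, hybridised with amplified RNA from cells of the bone marrow that the labels describe as VE-cadherin+ endothelial cells. The cells came from C57/Bl6 mice of 8 to 10 weeks, and the labels give neither the step that isolated them nor their purity. There were 5 arrays per group, from mice taken 6 hours, 24 hours or 14 days after total body irradiation with 5 Gy, and from mice that were not irradiated. Total body irradiation exposes the whole animal, so that cells of the marrow other than endothelium are hit as well. The replicates of a group are called biological in the labels, which do not say whether an array holds 1 mouse or a pool, so p-values measure the spread between these samples. The question the design puts to these genes is how far the transcripts of dividing cells drop after irradiation, and how far they are back at day 14.

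During mitosis the kinetochore, built on the centromere, binds the ends of spindle microtubules, and a checkpoint made of Bub and Mad proteins holds the cell before anaphase until every chromosome is attached. Kinesin motors set up and keep the bipolar spindle, condensin compacts the chromosomes, and the anaphase-promoting complex with Cdc20 then releases separase, which opens cohesin. A midzone bundle, a contractile ring and the midbody finish the division. Most of these genes are transcribed in G2 and M phase, which is why their transcripts serve as a sign of cycling cells. DNA damage with active p53 is known to shut many of them off through the DREAM repressor, which sits on a promoter element called CHR, often next to CCAAT boxes. Endothelium of adult marrow divides rarely, while erythroid precursors of the marrow divide fast.

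The groups differed in more than these genes. The irradiation marker Cdkn1a, which encodes the p53-induced cell cycle inhibitor p21, had a mean signal of 5968 ± 416 at 6 hours and 5017 ± 456 at 24 hours, against 943 ± 66.8 in non-irradiated mice (SD, n = 5 each). Endothelial markers were present in all groups: Cdh5, which encodes VE-cadherin, had mean signals of 8954 ± 1263 (6 hours), 4891 ± 188 (24 hours) and 1293 ± 270.1 (day 14), against 3186 ± 494 in non-irradiated mice. The pan-leukocyte gene Ptprc, which is no endothelial marker, also had signal, with 2722 ± 476, 3811 ± 393 and 2726 ± 182 at the same 3 times, against 4785 ± 417. The median signal of an array was lower at day 14 (87.3 to 109) and at 24 hours (128 to 142) than in non-irradiated mice (167 to 194), with 137 to 163 at 6 hours. Hybridization controls and the 3' minus 5' signal of Gapdh also set the 24-hour and day-14 arrays apart from the other groups. Replicate arrays correlated least at 6 hours, with r of 0.893 to 0.902 over all genes.

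At 6 hours and at 24 hours after irradiation nearly the whole mitotic set was lower than in non-irradiated mice. A gene was called when its limma p, adjusted over all 18193 genes by Benjamini and Hochberg, was under 0.05. By that measure 43 of the 45 genes were lower at 6 hours, where 14.5% of all genes were called lower, and 0 were higher, where 12.9% of all genes were. At 24 hours 43 were again lower (13.8% of all genes) and 0 higher (15.7% of all genes). The genes not called were Cep55 and Espl1 at 6 hours and Cep55 and Pttg1 at 24 hours. The median log2 change of the 45 genes was -1.47 at 6 hours and -1.80 at 24 hours, that is 2.77-fold and 3.49-fold lower, while the median over all genes was -0.02 and -0.07. At 6 hours all 5 irradiated arrays lay below all 5 non-irradiated arrays for 37 of the genes (8.05% of all genes), and at 24 hours for 43 (12.9% of all genes). The mean log2 signal of the 45 genes on an array, set to 0 for the non-irradiated mean, was -1.53 ± 0.079 at 6 hours and -1.76 ± 0.056 at 24 hours, against 0 ± 0.027 in non-irradiated mice (SD over 5 arrays).

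The scaling of the arrays bears on these counts. Setting each array to a common median, in place of the deposited scaling, moved every change against non-irradiated mice up, by 0.25 (6 hours), 0.38 (24 hours) and 0.90 (day 14). With that centring 39 and 42 of the genes were lower at 6 and 24 hours. The share of all genes called higher and lower became 19.4% and 8.89% at 6 hours, 27.2% and 6.26% at 24 hours and 45.1% and 2.53% at day 14. Relative to the median of all genes, which does not depend on that choice, the median of the 45 genes lay at -1.45 at 6 hours, -1.73 at 24 hours and 0.63 at day 14.

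**Figure D1:**
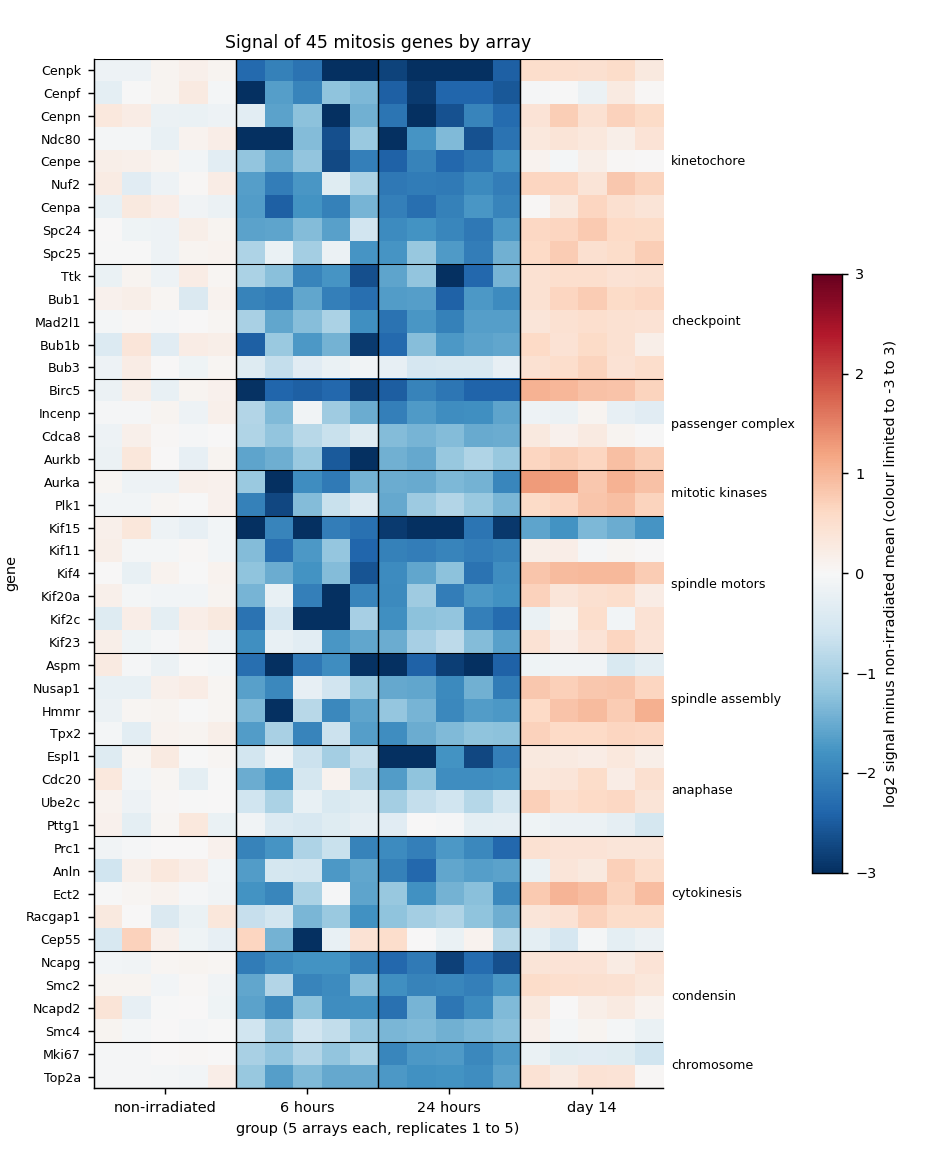
Log2 signal of each of the 45 genes (rows, grouped by role) on each of the 20 arrays (columns, 5 per group in the order non-irradiated, 6 hours, 24 hours, day 14), minus the gene's non-irradiated mean. Blue is below and red above that mean, with the colour limited at 3 in either direction. The 6-hour and 24-hour columns are blue in nearly every row, the 6-hour columns are the most uneven, and Pttg1, by the probe set used, stays pale. Cep55 scatters, down to -3.18 on replicate 3 at 6 hours.

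Promoter sequences of 39 of the 45 genes were held by the RefSeq table used (build GRCm38.p6), as 45 windows from 250 bases before to 50 bases after a start site, since some genes have several starts. The table did not hold windows for Smc4, Incenp, Spc24, Tpx2, Aurkb and Kif20a. Each window was searched on both strands for TTTGAA, the core letters of the CHR element, and for CCAAT. A match of one can share at most 1 base with a match of the other. TTTGAA was found in 35 of the 45 windows, 77.8%, and in 17.9% of all 32851 windows of the table. Counting only matches that start within 50 bases of the start site, it was found in 68.9% of the windows of the mitotic genes and in 4.94% of all windows. CCAAT was found in 75.6% of the windows of the mitotic genes and in 37.4% of all, and both together in 64.4% and 6.95%. In the windows of 31 DNA replication genes TTTGAA was found in 11.4% and CCAAT in 57.1%. In the 126 windows of 106 other mitosis genes TTTGAA was found in 27%, CCAAT in 49.2% and both in 15.9%. The genes with no TTTGAA in any window were Birc5, Bub1, Cenpe, Cenpk, Mad2l1, Nuf2, Nusap1 and Pttg1, and a missing match says only that these letters are not in the window. A match is a description of the sequence, and no binding was measured here.

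The windows printed are those of the genes with the largest and the smallest 6-hour change among kinetochore, spindle motor, condensin and cytokinesis genes, so that both ends of the response can be read. They run 5′ to 3′ on the strand of the gene, base 251 is the start site, and capitals mark TTTGAA and CCAAT, read on either strand. Ndc80 (chr17:71526808-71527107, minus strand) and Spc25 (chr2:69206164-69206463, minus strand) are the kinetochore genes, Kif15 (chr9:122950831-122951130, plus strand) and Kif23 (chr9:61946750-61947049, minus strand) the motors, Ncapg (chr5:45669675-45669974, plus strand) the condensin gene, and Prc1 (chr7:80294201-80294500, plus strand) and Cep55 (chr19:38054734-38055033, plus strand) the cytokinesis genes, the last 2 by the first of their 2 windows. The promoter of Smc4, the condensin gene with the smallest change, is named only.
Ndc80: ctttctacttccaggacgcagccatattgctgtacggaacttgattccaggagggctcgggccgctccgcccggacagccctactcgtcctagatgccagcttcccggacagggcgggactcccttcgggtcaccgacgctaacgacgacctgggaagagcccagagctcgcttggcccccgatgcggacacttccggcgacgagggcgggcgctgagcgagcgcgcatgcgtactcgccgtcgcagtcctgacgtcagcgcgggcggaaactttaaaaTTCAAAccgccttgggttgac
Spc25: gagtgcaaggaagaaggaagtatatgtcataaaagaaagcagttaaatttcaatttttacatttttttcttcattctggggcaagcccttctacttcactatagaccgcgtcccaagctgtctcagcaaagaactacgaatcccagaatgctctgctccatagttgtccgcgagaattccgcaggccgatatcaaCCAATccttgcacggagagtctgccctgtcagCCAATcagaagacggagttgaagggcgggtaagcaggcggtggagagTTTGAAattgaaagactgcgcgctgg
Kif15: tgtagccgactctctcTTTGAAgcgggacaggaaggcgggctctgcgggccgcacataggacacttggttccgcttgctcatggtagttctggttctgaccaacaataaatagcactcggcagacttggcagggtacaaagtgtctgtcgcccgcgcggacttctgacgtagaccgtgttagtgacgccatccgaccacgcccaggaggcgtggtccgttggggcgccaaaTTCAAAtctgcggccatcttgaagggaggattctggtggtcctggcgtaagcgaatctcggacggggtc
Kif23: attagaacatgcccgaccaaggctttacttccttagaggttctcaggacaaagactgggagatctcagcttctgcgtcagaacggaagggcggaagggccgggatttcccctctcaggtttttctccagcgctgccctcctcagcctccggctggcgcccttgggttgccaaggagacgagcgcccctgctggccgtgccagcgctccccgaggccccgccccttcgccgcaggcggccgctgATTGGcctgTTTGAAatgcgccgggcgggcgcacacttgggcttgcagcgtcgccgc
Ncapg: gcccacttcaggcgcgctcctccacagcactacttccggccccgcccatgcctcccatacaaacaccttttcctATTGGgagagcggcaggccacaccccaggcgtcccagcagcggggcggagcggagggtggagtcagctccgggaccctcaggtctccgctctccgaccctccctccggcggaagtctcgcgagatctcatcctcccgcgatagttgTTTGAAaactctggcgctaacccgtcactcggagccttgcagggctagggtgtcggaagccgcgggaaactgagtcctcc
Prc1: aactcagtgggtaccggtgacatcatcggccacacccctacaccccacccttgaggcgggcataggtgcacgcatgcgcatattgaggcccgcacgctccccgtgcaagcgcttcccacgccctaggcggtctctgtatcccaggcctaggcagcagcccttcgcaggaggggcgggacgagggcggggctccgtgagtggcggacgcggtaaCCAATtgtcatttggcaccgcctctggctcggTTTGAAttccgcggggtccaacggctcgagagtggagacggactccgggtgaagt
Cep55: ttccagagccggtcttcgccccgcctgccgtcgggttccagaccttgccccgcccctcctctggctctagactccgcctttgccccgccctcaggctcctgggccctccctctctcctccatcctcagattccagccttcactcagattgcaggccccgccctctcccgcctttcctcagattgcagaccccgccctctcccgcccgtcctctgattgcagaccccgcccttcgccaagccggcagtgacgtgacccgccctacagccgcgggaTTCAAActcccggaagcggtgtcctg
All 7 windows hold TTTGAA, including that of Cep55, a gene that was not called at any time. In Ndc80 it starts at base +30 counted from the start site, in Spc25 at +25, in Kif23 at +3, in Ncapg at -30 and in Prc1 at -5. Kif15 holds it at -234 and at -19, and Cep55 at +25.

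All 9 kinetochore genes were lower at both early times, with a median log2 change of -1.87 at 6 hours and -2.15 at 24 hours. Spc24, a subunit of the Ndc80 complex that grips microtubule ends, had signals of 724, 734, 889.9, 716 and 1472 at 6 hours and 594, 639, 572, 495 and 665 at 24 hours, against 2221, 2015, 2001, 2499 and 2350 in non-irradiated mice. Every array of these 2 times was below every non-irradiated one, and replicate 5 at 6 hours was the highest of them. The log2 change was -1.34 ± 0.16 at 6 hours (adjusted p = 3.11e-07) and -1.90 ± 0.16 at 24 hours (adjusted p = 6.46e-10), with SE as the error here and below. Ndc80, which names that complex, had 77.6, 7.53, 305, 120.4 and 346 at 6 hours and 67.7, 218, 299.6, 121 and 163 at 24 hours, against 726, 727, 648, 815 and 868 in non-irradiated mice. Its 6-hour arrays were far apart, and replicate 2 there lay at or under the background level of its array. The fitted change was -2.96 ± 0.61 at 6 hours (adjusted p = 5.14e-04) and -2.28 ± 0.61 at 24 hours (adjusted p = 0.00539), and the SE is among the widest of the set. The other subunits of the complex changed by -1.36 (Nuf2) and -0.82 (Spc25) at 6 hours, and by -2.07 and -1.63 at 24 hours.

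Cenpk, part of the inner group of proteins that stays on the centromere through the cycle, had 501, 618, 549, 305 and 287 at 6 hours and 367, 278, 247, 299.9 and 464 at 24 hours, against 2282, 2289, 2687, 2805 and 2702 in non-irradiated mice. No 6-hour or 24-hour array came near the non-irradiated range. Cenpk was 5.89-fold lower at 6 hours (log2 -2.56 ± 0.20, adjusted p = 1.73e-10) and 7.86-fold lower at 24 hours (log2 -2.97 ± 0.20, adjusted p = 7.67e-12). Cenpa, the histone variant that marks the centromere, was 3.65-fold lower at 6 hours and 4.04-fold lower at 24 hours. Cenpn, which reads that histone, changed by -2.04 ± 0.57 at 6 hours, and its replicate 4 there was also at or under background. Cenpf of the outer kinetochore changed by -1.89 ± 0.26 and -2.53 ± 0.26 at the 2 times, and Cenpe, a kinesin that carries chromosomes to the spindle equator, by -1.73 ± 0.22 and -2.15 ± 0.22.

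All 5 checkpoint genes were called lower at both times, by very different amounts, and the calls on Bub3 depended on the settings. Bub1, the kinase that recruits the other checkpoint proteins, was 3.97-fold lower at 6 hours and 3.67-fold lower at 24 hours. Bub1b, which with Bub3 and Mad2l1 forms the inhibitor of Cdc20, was 3.77-fold and 3.25-fold lower, Mad2l1 2.48-fold and 3.62-fold, and the kinase Ttk 3.29-fold and 3.75-fold. Bub3 was the exception, with signals of 2463, 1976, 2573, 2808 and 3027 at 6 hours and 2729, 2297, 2339.5, 2308 and 2754 at 24 hours, against 2905, 3761, 3277, 2979 and 3357 in non-irradiated mice. The 6-hour arrays overlapped the non-irradiated range, the 24-hour arrays did not, and the change was -0.35 ± 0.11 at 6 hours (adjusted p = 0.0161) and -0.39 ± 0.11 at 24 hours (adjusted p = 0.00734). The 6-hour call on Bub3 was lost without 6-hour replicate 2 (adjusted p = 0.0573) and without non-irradiated replicate 2 (adjusted p = 0.0561), and without _x_at and _s_at probe sets, which can match several transcripts, the 6-hour change was 0.14 and the 24-hour change -0.14 (adjusted p = 0.778). With median-centred arrays Bub3 changed by -0.10 at 6 hours (adjusted p = 0.588) and by -0.006 at 24 hours (adjusted p = 0.978). With the Gapdh 3' minus 5' signal as a covariate its calls at 6 hours (adjusted p = 0.0564) and 24 hours (adjusted p = 0.124) were lost.

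The chromosomal passenger complex, which corrects faulty attachments and later marks the division plane, was lower in all 4 measured subunits. Incenp, its scaffold, had 5913, 4330.4, 9954, 5145 and 3862 at 6 hours and 2611, 3304, 2961, 2994 and 3578 at 24 hours, against 10550, 10459, 11460, 9690.4 and 11948 in non-irradiated mice. One 6-hour array, replicate 3, fell inside the non-irradiated range, while the 24-hour arrays were close together and far below it. Incenp changed by -0.97 ± 0.16 at 6 hours (adjusted p = 3.43e-05) and -1.81 ± 0.16 at 24 hours (adjusted p = 1.56e-09). Birc5, which encodes survivin, had 499, 758, 713, 770.0 and 564 at 6 hours and 700.5, 983, 868, 736 and 739 at 24 hours, against 3481, 4452, 3373, 4162 and 4277 in non-irradiated mice. That is 6.02-fold lower at 6 hours (log2 -2.59 ± 0.14, adjusted p = 1.42e-13) and 4.91-fold lower at 24 hours (log2 -2.30 ± 0.14, adjusted p = 1.15e-12), with the groups well apart. Aurkb, the kinase of the complex, had 420.3, 457, 578, 218 and 130.4 at 6 hours and 462, 432, 568, 676 and 573 at 24 hours, against 1115, 1593, 1258, 1059.8 and 1325 in non-irradiated mice. All arrays of these 2 times were below the non-irradiated ones, and its change was -1.99 ± 0.27 at 6 hours and -1.23 ± 0.27 at 24 hours. Cdca8, borealin, changed by -0.79 ± 0.11 and -1.40 ± 0.11.

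Both mitotic kinases outside that complex were lower. Aurka, which drives the maturation of spindle poles, had 742, 142, 438, 363 and 592 at 6 hours and 569, 556, 626, 592 and 409 at 24 hours, against 1652, 1426, 1422, 1769 and 1728 in non-irradiated mice. No 6-hour or 24-hour array reached the non-irradiated range, and replicate 2 at 6 hours was far below the rest. The change was -2.00 ± 0.27 at 6 hours (adjusted p = 2.36e-06) and -1.55 ± 0.27 at 24 hours (adjusted p = 6.82e-05). Plk1, which acts from mitotic entry to cytokinesis, was 2.69-fold lower at 6 hours and 2.29-fold lower at 24 hours.

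All 6 spindle motors were lower at both times, with medians of -1.76 at 6 hours and -1.73 at 24 hours. Kif11, the motor that pushes the poles apart, had 1798, 915, 1329, 1972 and 842 at 6 hours and 1075, 1039, 1122, 1039.5 and 1089 at 24 hours, against 4969, 4245, 4212, 4472 and 4146 in non-irradiated mice. Its 24-hour arrays had the narrowest spread of the 45 genes at that time (SD 0.047 in log2), and the change was -1.76 ± 0.17 at 6 hours and -2.04 ± 0.17 at 24 hours. Kif15, a motor that helps Kif11 keep the spindle bipolar, had 47.1, 184, 23.8, 171 and 153 at 6 hours and 99.2, 67.5, 45.5, 159.8 and 97 at 24 hours, against 807, 921, 655, 618 and 687 in non-irradiated mice. This was the largest fitted fall of the 45 genes at either time, 8.13-fold at 6 hours (log2 -3.02 ± 0.44, adjusted p = 5.89e-06) and 8.38-fold at 24 hours (log2 -3.07 ± 0.44, adjusted p = 3.92e-06). Its 6-hour replicate 3 lay at or under background.

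Kif4, a motor carried by chromosome arms, had 249, 203, 163, 231 and 93.6 at 6 hours and 155, 195, 244, 123 and 157 at 24 hours, against 579, 488, 621, 571 and 615 in non-irradiated mice, with no overlap. It was 3.21-fold lower at 6 hours (log2 -1.68 ± 0.24) and 3.35-fold lower at 24 hours (log2 -1.75 ± 0.24). Kif20a, which moves the passenger complex to the midzone, was 3.37-fold and 3.3-fold lower, and Kif2c, which takes microtubule ends apart, 5.03-fold and 3.29-fold, the last with 1 array at 6 hours at or under background. Kif23, which with Racgap1 forms the centralspindlin complex of the midzone, changed least of the motors, -1.13 ± 0.26 at 6 hours and -1.24 ± 0.26 at 24 hours.

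The 4 spindle assembly genes had medians of -1.63 at 6 hours and -1.64 at 24 hours, and all were called lower. Nusap1, a microtubule bundler near chromosomes, had 1017, 819, 2657, 2129 and 1467 at 6 hours and 1080.4, 1075, 836, 1166 and 732 at 24 hours, against 2699, 2697, 3508, 3701 and 3296 in non-irradiated mice. The highest 6-hour array, replicate 3, lay just under the lowest non-irradiated arrays, and the change was -1.10 ± 0.22 at 6 hours and -1.71 ± 0.22 at 24 hours. Aspm, a spindle pole protein, had 657, 247, 707, 859 and 397 at 6 hours and 209, 580.0, 444, 300.2 and 579 at 24 hours, against 3777, 3059.6, 2784, 3111 and 2995 in non-irradiated mice. It was 5.97-fold lower at 6 hours and 7.94-fold lower at 24 hours (log2 -2.99 ± 0.27, adjusted p = 2.85e-09), next to Kif15 at the low end of the set. Tpx2, which activates Aurora A on the spindle, changed by -1.39 ± 0.19 and -1.42 ± 0.19, and Hmmr, which acts at the poles, by -1.88 ± 0.31 and -1.58 ± 0.31.

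Among the anaphase genes the early change was smaller, with a median of -0.56 at 6 hours and -1.21 at 24 hours, and 3 of 4 were called at each time. Ube2c, the enzyme that hands ubiquitin to the anaphase-promoting complex, had 5584, 4318, 7143, 6142 and 6455 at 6 hours and 4131, 5080.1, 5589, 4650.3 and 5750.4 at 24 hours, against 9071, 7532, 8607, 8363 and 8464 in non-irradiated mice. The groups did not overlap, although the change was only -0.52 ± 0.11 at 6 hours (adjusted p = 5.52e-04) and -0.75 ± 0.11 at 24 hours (adjusted p = 5.39e-06). With median-centred arrays the 6-hour change of Ube2c was -0.27 (adjusted p = 0.151). Cdc20, the activator of that complex, changed by -0.93 ± 0.24 and -1.68 ± 0.24. Pttg1, securin, which holds separase inactive, had 3734, 2992, 2859, 3098 and 3319 at 6 hours and 3159, 4012, 3906, 3272 and 3316 at 24 hours, against 4349, 3285, 4184, 4943 and 3461 in non-irradiated mice. The groups overlapped at both times, and the change was -0.33 ± 0.12 at 6 hours (adjusted p = 0.035) and -0.19 ± 0.12 at 24 hours (adjusted p = 0.25). The 6-hour call on Pttg1 was lost without any 1 of 3 of the 6-hour arrays (replicates 2, 3 and 4) or of 3 of the non-irradiated arrays (replicates 1, 3 and 4), with adjusted p of 0.0555 to 0.126. In a limma fit of all probe sets, a dimmer probe set of Pttg1 was called lower at both times. It changed by -1.21 at 6 hours (adjusted p = 7.88e-06) and by -0.69 at 24 hours (adjusted p = 0.00354). Another changed by -0.14 and 0.78 at these times and was not called.

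Espl1, which encodes separase, the protease that cuts cohesin, moved later than its neighbours. Its signals were 653, 881, 606, 465 and 583 at 6 hours and 113, 67.3, 273, 142 and 230.5 at 24 hours, against 731, 985, 1147, 944 and 999 in non-irradiated mice. The 6-hour arrays reached into the non-irradiated range, whereas all 24-hour arrays were below all 6-hour arrays. The change was -0.61 ± 0.27 at 6 hours (adjusted p = 0.0987, not called) and -2.69 ± 0.27 at 24 hours (adjusted p = 1.38e-08), or 6.44-fold lower.

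Of the 5 cytokinesis genes 4 were lower at both times, and the median change was -1.20 at 6 hours and -1.52 at 24 hours. Prc1, which crosslinks the microtubules of the midzone, had 434, 512, 919, 1099 and 434 at 6 hours and 467, 421, 526, 454 and 339.7 at 24 hours, against 1629.5, 1686, 1755, 1758 and 1889.7 in non-irradiated mice. There was no overlap, and the change was -1.47 ± 0.20 at 6 hours (adjusted p = 3.33e-06) and -1.99 ± 0.20 at 24 hours (adjusted p = 2.18e-08). Anln, a scaffold of the contractile ring, was 2.3-fold and 3.59-fold lower, Ect2, which switches on RhoA there, 2.4-fold and 2.87-fold, and Racgap1 2.15-fold and 2.24-fold. Cep55, which brings the abscission machinery to the midbody, had 623, 149, 43.3, 345 and 538 at 6 hours and 578, 404, 349, 431 and 226 at 24 hours, against 285, 649, 443, 367 and 339 in non-irradiated mice. Its arrays scattered in every group, the groups overlapped, and the change of -0.75 ± 0.47 at 6 hours (adjusted p = 0.268) and -0.07 ± 0.47 at 24 hours (adjusted p = 0.93) was within that spread.

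The condensin genes were lower throughout, with medians of -1.60 at 6 hours and -1.86 at 24 hours. Smc4, an ATPase core of both condensin complexes, had 6843, 4917, 6976, 6210.4 and 4605 at 6 hours and 4001, 4117, 3814, 4025 and 4341 at 24 hours, against 10964, 9948, 10390, 10142 and 10154 in non-irradiated mice. The 3 ranges did not touch, and the change was -0.82 ± 0.10 at 6 hours (adjusted p = 2.94e-07) and -1.35 ± 0.10 at 24 hours (adjusted p = 4.09e-11). Its partner Smc2 changed by -1.51 ± 0.15 and -1.92 ± 0.15, and the condensin I subunits Ncapg and Ncapd2 by -1.92 ± 0.13 and -1.69 ± 0.18 at 6 hours and by -2.44 ± 0.13 and -1.80 ± 0.18 at 24 hours. Mki67, the coat protein of mitotic chromosomes known as Ki-67, had 9142, 8075, 9832, 7897 and 9390 at 6 hours and 4661, 5467, 5563, 4693 and 5544 at 24 hours, against 17731, 17583, 18268, 18391 and 18285 in non-irradiated mice. The ranges were again separate, with changes of -1.03 ± 0.08 (adjusted p = 1.08e-10) and -1.80 ± 0.08 (adjusted p = 2.34e-15). Top2a, which untangles sister chromatids, changed by -1.44 ± 0.11 and -1.76 ± 0.11.

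**Figure D2:**
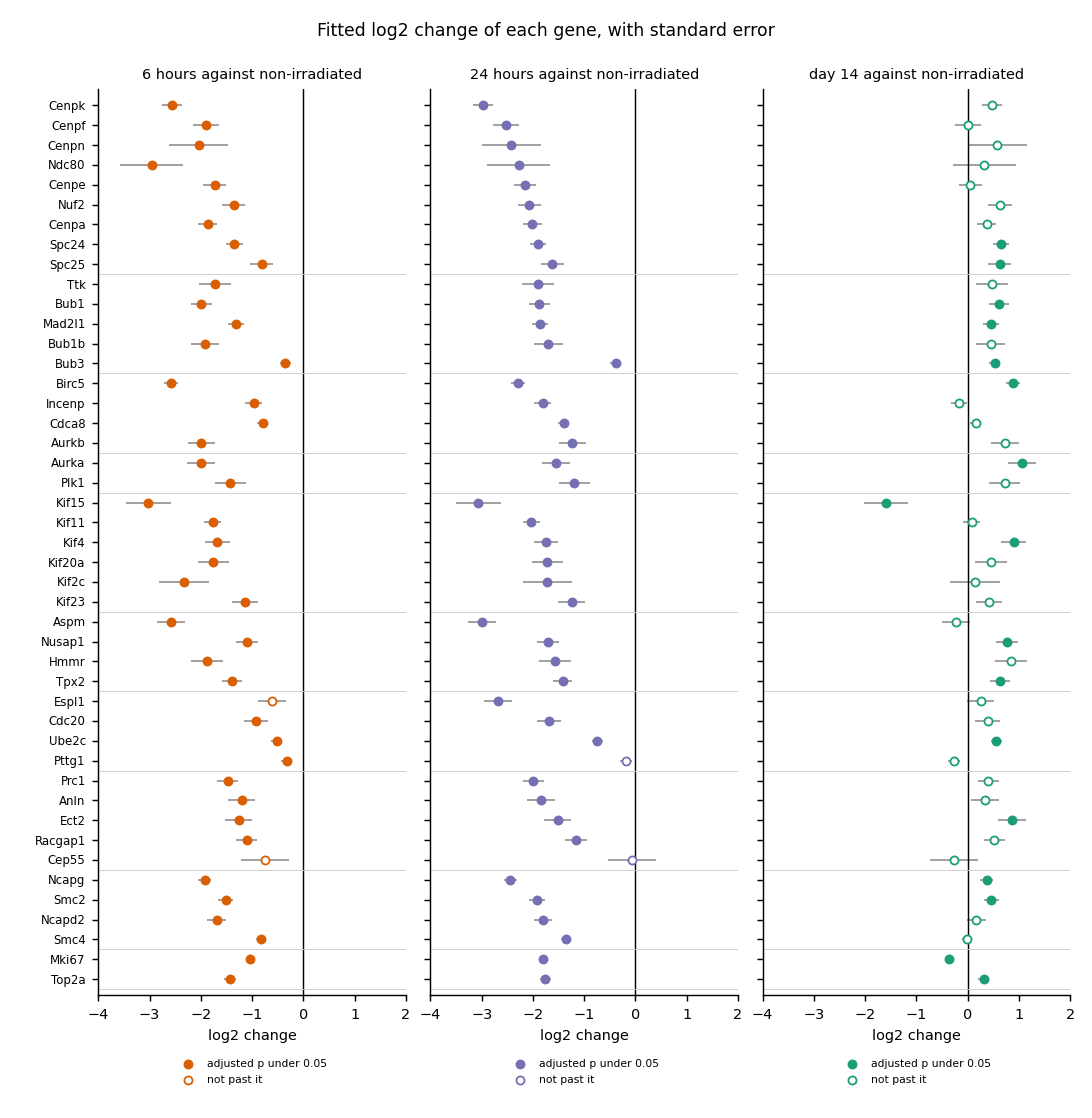
Fitted log2 change of each of the 45 genes against non-irradiated mice at 6 hours, 24 hours and day 14, with limma's standard error as the horizontal bar and grey lines between roles. Filled points passed an adjusted p of 0.05 and open points did not. At 6 and 24 hours 43 points each are filled and left of 0, and at day 14 the filled points are 15 to the right and Kif15 and Mki67 to the left.

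By the median of its members the kinetochore list had the lowest values of the 10 roles at both early times and the anaphase list the highest, and the differences between roles were not tested. The per-array mean of the kinetochore genes, relative to non-irradiated mice, was -1.84 ± 0.32 at 6 hours and -2.22 ± 0.10 at 24 hours (SD, n = 5). The motors had -1.95 ± 0.50 and -1.92 ± 0.14, condensin -1.49 ± 0.079 and -1.88 ± 0.15, and cytokinesis -1.16 ± 0.25 and -1.32 ± 0.22. At 24 hours the 5 kinetochore means (-2.35 to -2.07) did not overlap the 5 cytokinesis means (-1.64 to -1.15), and touched the motor and condensin ranges (-2.09 to -1.72 and -2.09 to -1.71). Each of these means is pulled by its members, Cep55 in the cytokinesis set being the clearest case. The order of medians also moved with the probe sets used: as the mean of all probe sets of a gene, the 6-hour median was -1.51 for the kinetochore and -1.80 for the condensin genes.

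**Figure D3:**
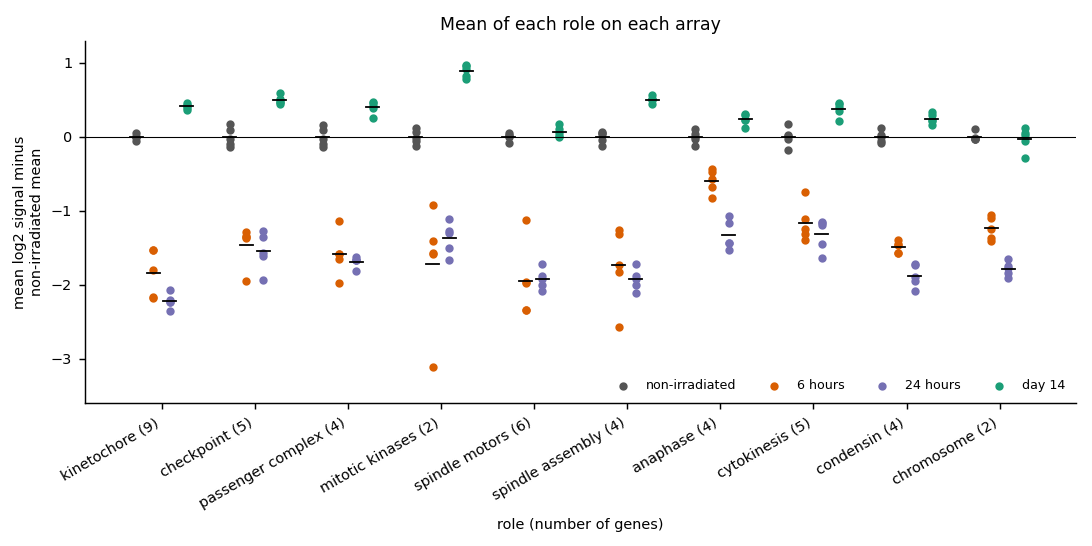
Mean log2 signal of the genes of each role on each array, minus the non-irradiated mean (vertical axis), for 5 arrays of each group, with the group mean as a bar. The 6-hour and 24-hour points lie below every non-irradiated point in all 10 roles, down to -3.11 for the mitotic kinases on 1 array at 6 hours.

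Between 24 and 6 hours the set moved little. At 24 hours 14 of the 45 genes were lower than at 6 hours, where 10.1% of all genes were called lower, and 1 was higher, where 13.7% of all genes were, with a median log2 change of -0.26. Without 24-hour replicate 3 the lower count was 9. Espl1 had the largest change, -2.08 ± 0.27 (adjusted p = 1.98e-06). Mki67 changed by -0.77 ± 0.08 (adjusted p = 3.23e-08), Incenp by -0.84 ± 0.16 (adjusted p = 2.94e-04), Spc25 by -0.81 ± 0.22 and Cdc20 by -0.75 ± 0.24. The condensin genes Smc4, Ncapg and Smc2 were lower at 24 hours too, by -0.52, -0.52 and -0.41 on the log2 scale. The spindle motors and cytokinesis genes had 0 calls in either direction in the limma fit. The single gene that was higher, Aurkb (0.76 ± 0.27, adjusted p = 0.0422), lost that call without 6-hour replicate 4 or 5 or 24-hour replicate 3, 4 or 5, and its second probe set changed by -0.46. Hybridization controls and the Gapdh 3' minus 5' signal differed between these groups, and with the Gapdh signal as a covariate, 83.8% of whose variance lay between the groups, 3 genes were lower. In that fit 27 of the 45 genes kept the sign of their change and the median standard error was 0.474, against 0.219 without the covariate. Incenp had a fitted value of 0.48, Nusap1 of 0.56, Smc4 of 0.0864 and Spc24 of -0.83 (adjusted p = 0.153 for Spc24).

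By day 14 nearly all of these transcripts were well above their early levels. Relative to 24 hours 43 of the 45 genes were higher (15.2% of all genes) and 0 lower (21.7% of all genes), with a median log2 change of 2.21, or 4.63-fold. All 5 day-14 arrays lay above all 5 24-hour arrays for 43 genes (15.7% of all genes). Relative to 6 hours 43 were higher (19.8% of all genes) and 0 lower (25% of all genes), with a median of 1.91. Cep55 and Pttg1 were the genes not called in both comparisons. These comparisons share the day-14 arrays with each other and the early arrays with the falls above. The course of lower at 6 and at 24 hours than non-irradiated and then higher at day 14 than at 24 hours was followed by 42 of the 45 genes, and by 6.62% of all genes.

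Cenpk had the largest rise from 24 hours, with day-14 signals of 3681, 3634, 3533, 3710.4 and 3135, or 10.9-fold higher (log2 3.45 ± 0.20, adjusted p = 3.34e-13). All 5 were also above the non-irradiated arrays, but that change was not called (log2 0.47 ± 0.20, adjusted p = 0.0834). Against non-irradiated mice a dimmer probe set of Cenpk changed by -1.32 at day 14 (adjusted p = 0.0399 in a limma fit of all probe sets). Another changed by -1.37 and was not called. Birc5 had the largest change from 6 hours, with 8037, 7828, 7197, 7069 and 6269.5 at day 14 (log2 3.48 ± 0.14, adjusted p = 2.47e-16). Espl1 had 1169, 1141, 1111, 1182 and 1072, 7.68-fold above 24 hours, and its range overlapped the non-irradiated one. Pttg1 had 3643, 3532, 3555, 3293 and 2763 at day 14, a change of -0.07 ± 0.12 from 24 hours (adjusted p = 0.662) and 0.07 ± 0.12 from 6 hours (adjusted p = 0.652). Its other probe sets changed by -0.76 and 0.32 from 24 hours, and by -0.25 and 1.24 from 6 hours. Of these the -0.76 and the 1.24 were called in a limma fit of all probe sets. Cep55 had 328, 279.5, 386, 326 and 354, a change of -0.19 ± 0.47 from 24 hours (adjusted p = 0.79), inside the spread of the earlier arrays.

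**Figure D4:**
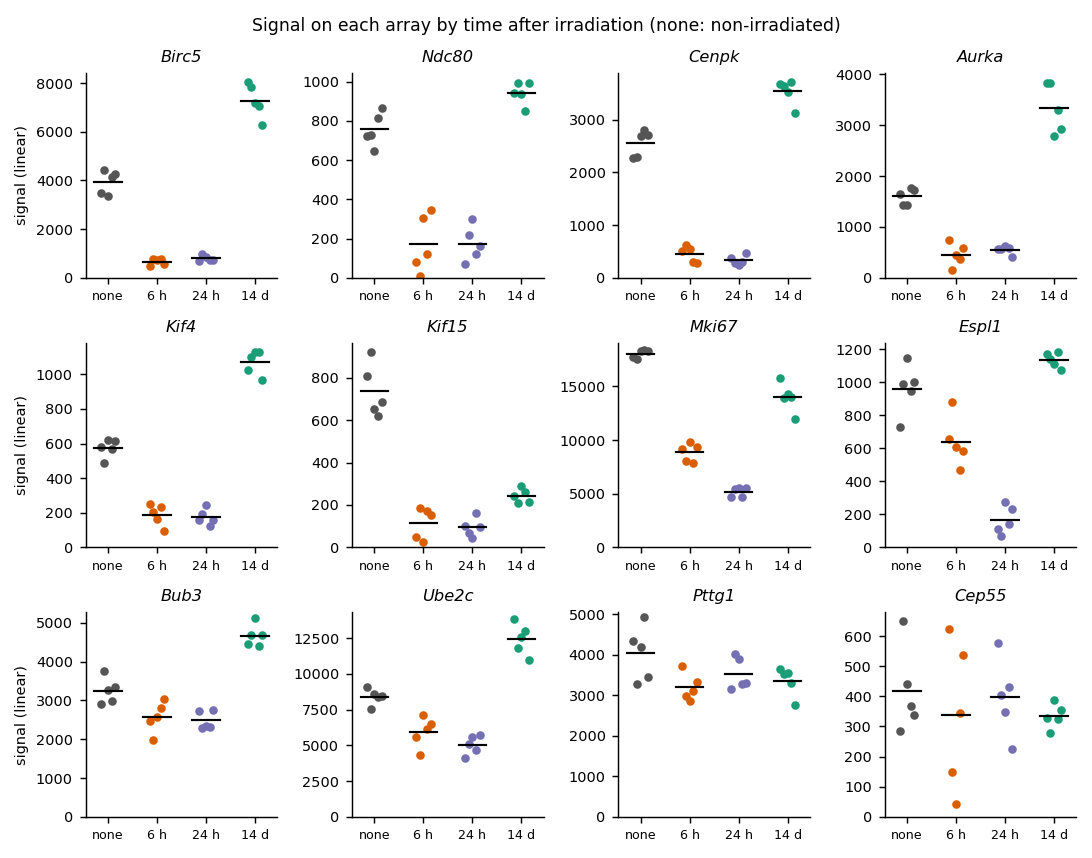
Linear array signal (vertical axis, from 0) of 12 of the genes in non-irradiated mice (none) and 6 hours, 24 hours and 14 days after irradiation, with 5 arrays per group as points and the group mean as a bar. Birc5, Aurka and Kif4 end above the non-irradiated level, Kif15 and Mki67 stay below it, Espl1 drops mainly between 6 and 24 hours, and Pttg1 and Cep55 overlap throughout.

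Against non-irradiated mice the day-14 values were less uniform. In the fit, 15 of the 45 genes were higher (9.47% of all genes), 2 were lower (13% of all genes) and 28 were not called, with a median log2 change of 0.45. The 15 were all among those lower at both early times, a course that 1.69% of all genes followed. All 5 day-14 arrays lay above all 5 non-irradiated arrays for 25 genes (11.4% of all genes). The count of 15 rests on the settings more than the early counts do. It was 41 with median-centred arrays, where 45.1% of all genes were called higher. It was 30 when only these 2 groups were fitted and 5 after quantile normalization. The share of all genes is not given for those 2 settings, so these 2 counts cannot be set against it. Leaving out single arrays gave 8 to 11, with 8 without day-14 replicate 2 and 9 without day-14 replicate 3 or without non-irradiated replicate 3. The higher genes came from every role but no role as a whole, with 2 of 9 kinetochore, 3 of 5 checkpoint, 1 of 6 motor, 2 of 4 spindle assembly, 1 of 5 cytokinesis and 2 of 4 condensin genes.

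Aurka was highest above the non-irradiated level, with 3838, 3822, 2781, 3305 and 2932 at day 14, against 1652, 1426, 1422, 1769 and 1728 in non-irradiated mice (log2 1.05 ± 0.27, adjusted p = 0.00669). Kif4 followed with 1023, 1102, 1129, 1131 and 969, against 579, 488, 621, 571 and 615 (log2 0.90 ± 0.24, adjusted p = 0.00919). Neither overlapped the non-irradiated arrays, and Aurka was the only gene of the 45 called with a rise of at least 2-fold. A dimmer probe set of Aurka changed by -1.06 and was not called, and the mean of both probe sets changed by -0.002 (adjusted p = 0.996). Birc5 changed by 0.89 ± 0.14 (adjusted p = 3.92e-05), Nusap1 by 0.77 ± 0.22 with day-14 signals of 5557, 5193, 5568, 5593 and 4942, and Spc24 by 0.65 ± 0.16 with 3421, 3471, 3814, 3359 and 3272. Bub3, which had dropped least among the checkpoint genes, reached 4449, 4691, 5118, 4414 and 4695, above all its non-irradiated arrays (log2 0.53 ± 0.11, adjusted p = 0.00103), but the mean of its 5 probe sets changed by -0.61 (adjusted p = 0.0916). Ube2c reached 13817, 11815, 12599, 12986 and 10938, also clear of its non-irradiated arrays (log2 0.56 ± 0.11, adjusted p = 5.55e-04). Aurkb at 1961, 2094, 1979, 2351 and 2082 lay above every non-irradiated array. It missed the threshold in the fit over all 4 groups (log2 0.73 ± 0.27, adjusted p = 0.0518).

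Several genes were not called at day 14 against non-irradiated mice. Kif11 had 4982, 5058, 4306, 4559.8 and 4427 at day 14, against 4969, 4245, 4212, 4472 and 4146 in non-irradiated mice, a change of 0.08 ± 0.17 (adjusted p = 0.757). Smc4 had 11525, 9945, 10863, 9861 and 8944, a change of -0.02 ± 0.10 (adjusted p = 0.919). Both gene ranges overlapped those of non-irradiated mice, although a p above the threshold does not show that levels were equal. Incenp had 9702, 9498, 11372, 9036 and 8485 (-0.17 ± 0.16), Aspm 2852, 2911, 2896, 2265 and 2536 (-0.22 ± 0.27), Prc1 2387, 2322, 2301, 2253 and 2230 (0.40 ± 0.20) and Ndc80 941, 991, 939, 849.8 and 994 (0.32 ± 0.61), and none of these was called. Of those 4, Prc1 alone had every day-14 array above every non-irradiated array. The SE given here pool the spread of all 4 groups, so they do not measure that of the 2 groups compared. The median SD of a gene was 0.614 at 6 hours, against 0.131 at day 14 and 0.164 in non-irradiated mice.

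Kif15 and Mki67 were still lower at day 14. Kif15 had 244, 208, 288, 260.1 and 214 at day 14, against 807, 921, 655, 618 and 687 in non-irradiated mice, 3.02-fold lower (log2 -1.59 ± 0.44, adjusted p = 0.0103). Mki67 had 15818, 13920, 14318, 14031 and 11957, against 17731, 17583, 18268, 18391 and 18285 (log2 -0.37 ± 0.08, adjusted p = 0.00112). Neither gene overlapped the non-irradiated arrays. Both falls depend on scaling. With median-centred arrays Mki67 changed by 0.53 (adjusted p = 5.24e-04) and Kif15 by -0.69 (adjusted p = 0.188). Kif15 and Mki67 are each read by a single probe set.

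The other 63 probe sets of these genes, which belong to 32 of them, were mostly lower early. In a limma fit of all 45101 probe sets 50 of the 63 were lower and 0 higher at 6 hours, where 14.9% of all probe sets were lower and 9.33% higher. At 24 hours 50 were again lower and 0 higher, beside 16.7% lower and 11.5% higher of all. At day 14, 10 were higher and 11 lower than in non-irradiated mice, while 7.33% of all probe sets were higher and 23.1% lower. The 11 lower ones lay in 11 genes, and in none of those genes was the probe set used above called lower. For Top2a, a further probe set changed by -1.70 (mean signal 315 at day 14, 1025 in non-irradiated mice), against 0.31 for the one used. For Cenpa the values were -1.62 (437 and 1334) against 0.37, and for Smc2 -2.21 (108 and 498) against 0.47, while the other 3 probe sets of Smc2 were higher at day 14 by 0.38, 0.57 and 0.64. Pttg1 had 3 probe sets with day-14 changes of -0.26, -1.46 and 1.10, the last 2 called in opposite directions, so no single level can be given for it.

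Replicates agreed least at 6 hours. The median SD of a gene over 5 arrays, in log2 units, was 0.614 at 6 hours, 0.267 at 24 hours and 0.131 at day 14, and 0.164 in non-irradiated mice. Over all genes it was 0.652, 0.343, 0.328 and 0.396 in the same order. Ndc80 was the most variable of the 45 genes at 6 hours (SD 2.16) and Ncapg the least (SD 0.134). The limma fit pools the spread of all 4 groups, and with only the 6-hour and non-irradiated arrays fitted 40 of the genes were lower at 6 hours.

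A further 134 mitosis genes were listed from textbook knowledge, with earlier results of these data known, and 125 of them were measured. Against non-irradiated mice 77 in that list were lower and 8 higher at 6 hours (14.5% and 12.9% of all genes). At 24 hours 83 were lower and 7 higher (13.8% and 15.7%), and at day 14, 15 were higher and 4 lower (9.47% and 13%). The medians were -0.79, -0.93 and 0.28. Relative to 24 hours 90 were higher and 4 lower at day 14 (15.2% and 21.7% of all genes). Relative to 6 hours 85 were higher and 7 lower at day 14 (19.8% and 25%), and 7 were higher and 22 lower at 24 hours (13.7% and 10.1%). Centromere and kinetochore genes made up much of it, with 26 of 30 lower at each early time (14.5% and 13.8% of all genes). The largest 6-hour falls were those of Cep152 (-3.13 ± 0.52), a centriole assembly protein, and the centromere protein Cenps (-3.08 ± 0.48). At 24 hours they were those of Esco2 (-3.46 ± 0.27), which acetylates cohesin, and the kinesin Kif14 (-3.25 ± 0.42). Cep152 lay at or under background on 2 of the 5 arrays at 6 hours, Cenps on 3 and Kif14 on 2 at 24 hours, so the sizes and order of these falls rest partly on signals near background. All 4 further condensin genes were lower at both times. Esco2 (4.06 ± 0.27) and Nsl1 (3.31 ± 0.56), a kinetochore protein, had the largest rises at day 14 against 24 hours, and Cenps (4.17 ± 0.48) and the condensin II subunit Ncapg2 (3.46 ± 0.35) those against 6 hours. Nsl1 was also at or under background on 2 of the 5 arrays at 24 hours. The largest falls in both comparisons were those of Kif13a (-0.94 ± 0.36 and -1.95 ± 0.36) and Arhgef2 (-0.89 ± 0.20 and -1.74 ± 0.20).

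The further cytokinesis genes were split. Of 13 measured, 6 were higher and 5 lower at 6 hours (12.9% and 14.5% of all genes), and 5 higher and 4 lower at 24 hours (15.7% and 13.8%). Their difference from the other mitosis genes was not tested. The lower ones included Cit, the citron kinase of the midbody (log2 -1.52 at 6 hours and -1.97 at 24 hours), and the formin gene Diaph3 (-1.93 and -2.06). The kinesin Kif13a (1.51 ± 0.36) and Pdcd6ip, which links the midbody to the abscission machinery (0.81 ± 0.11), rose at 6 hours. Septin9 (0.95 ± 0.18), a filament protein of the cleavage furrow, and Chmp4b (0.74 ± 0.23), which cuts the last membrane bridge, rose at 24 hours. These genes also serve membrane traffic or the cytoskeleton of cells that are not dividing, and which cells carry these rises was not tested. Of the 15 genes of the anaphase-promoting complex list 5 were lower and 1 higher at 6 hours (14.5% and 12.9% of all genes). Of 13 cohesin genes 6 were lower and 0 higher at that time, and the difference between these lists was not tested. At day 14 Diaph3 (1.11 ± 0.30), a formin of the contractile ring, and Haus2 (1.09 ± 0.26), of the augmin complex, had the largest rises. Bora (-1.25 ± 0.25), an activator of Aurora A, and Arhgef2 (-1.04 ± 0.20), a RhoA activator, had the largest falls.

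DNA replication genes, which act in S phase, moved on the same scale. Of 38 measured 37 were lower at 6 hours (14.5% of all genes) and 36 at 24 hours (13.8%), with medians of -1.69 and -1.64. At either time 0 were higher, beside 12.9% and 15.7% of all genes. At day 14, 10 were higher and 1 lower than in non-irradiated mice (9.47% and 13% of all genes). At 24 hours against 6 hours the replication genes had 6 higher and 3 lower calls. In 38 genes that is near the shares of all genes, 13.7% higher and 10.1% lower. The mitotic genes had 1 higher and 14 lower, and the difference between the lists was not tested.

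Erythroid markers followed the same course as the mitotic genes. Of 12 erythroid markers 10 were measured. Of these 9 were lower at 6 hours (14.5% of all genes), 9 at 24 hours (13.8%), and 9 higher at day 14 than at 24 hours (15.2%). Their summed signal per array was 5389 to 9501 (6 hours), 2199 to 2898 (24 hours) and 56930 to 70270 (day 14), against 48300 to 51360 in non-irradiated mice. Klf1, the master regulator of the erythroid line, had mean signals of 430.3 ± 174, 134 ± 39.2 and 8353 ± 676 at those times, against 5693 ± 288. Endothelial markers went the other way, with 11 of 12 higher at 6 hours, 7 higher at 24 hours and 7 lower and 1 higher at day 14. Their sums were 42030 to 49360, 23660 to 24940 and 8529 to 10010 at the 3 times, against 14960 to 16430. Pecam1, an endothelial surface protein, had 3542 ± 1004 at 6 hours and 426 ± 64.8 at day 14, against 1295 ± 228. Beside the endothelial counts and those that follow, 12.9% of all genes were higher and 14.5% lower at 6 hours. At 24 hours 15.7% of all genes were higher and 13.8% lower, and at day 14 9.47% and 13%. Of 8 pan-leukocyte markers 1 was higher and 4 lower at 6 hours, 1 lower at 24 hours and 4 lower at day 14. Of 5 megakaryocyte markers 5 were higher at 6 hours, 3 higher at 24 hours and 2 lower at day 14. Of 8 granulocyte markers 6 were lower and 0 higher at 6 hours, and 4 lower and 1 higher at 24 hours and at day 14. Of 7 monocyte and macrophage markers 4 were lower at 6 hours, 4 lower and 1 higher at 24 hours, and 3 lower at day 14. The 7 B lineage markers had 1 higher and 1 lower at 6 hours, 1 higher and 4 lower at 24 hours and 0 calls at day 14. The 6 stem and progenitor markers had 1 higher at 6 hours, 1 higher and 2 lower at 24 hours and 2 lower at day 14. In lists of 6 to 8 genes a single call is near the share of all genes, so it shows no shift of a cell type. Fewer cells of a type and less RNA per cell cannot be told apart in bulk RNA, and the part of erythroid cells in the mitotic changes was not tested. With the erythroid mean as a covariate, 98.1% of whose variance lay between the groups, 1 of the 45 genes was lower at 6 hours, 0 at 24 hours, and 0 higher at day 14 than at 24 hours. Standard errors were wider in that fit, with a median of 0.824 at 6 hours and 1.17 at 24 hours, against 0.219 without the covariate. The median fitted change was -1.30 at 6 hours and -1.71 at 24 hours, beside -1.47 and -1.80 without it. At each of these times 24 of the 45 genes had a fitted change of the same sign and at least as large, while 6 genes at 6 hours and 7 at 24 hours changed sign. Spc24 was at -2.16 and -3.08 at the 2 times, whereas Kif4 was at 1.02 and 2.16.

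**Figure D5:**
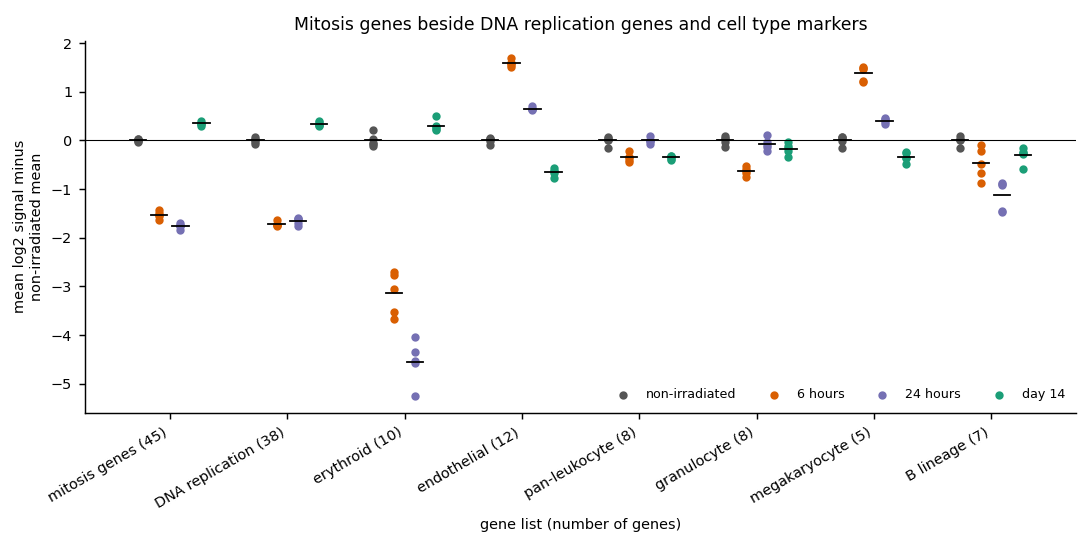
Mean log2 signal on each array, minus the non-irradiated mean, for the 45 mitosis genes, 38 DNA replication genes and markers of 6 cell types (5 arrays per group, bars at group means). Erythroid markers follow the course of the mitosis genes with a deeper drop, down to -5.25 on 1 array at 24 hours, while endothelial and megakaryocyte markers are above 0 early and below 0 at day 14. The depth of the erythroid drop rests partly on signals near background.

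Across the 20 arrays the genes outside the set whose log2 signal was most like that of Mki67 were Anp32b (Pearson r = 0.98), Car1 (0.97) and Mtm1 (0.97). Car1 encodes the carbonic anhydrase found in red cells. Of the other 44 mitotic genes 42 had r above 0.5 and 6 above 0.9, led by Smc4 (0.95) and Incenp (0.95), while Pttg1 had 0.32 and Cep55 0.02. All points share the 4 groups and the scaling of each array, so these values describe the course over groups more than any tie between single arrays.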

How the data were processed

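The deposited series matrix holds an intensity per probe set for 20 arrays on a linear scale, which the authors had already normalized: the values show every array at a trimmed mean of 500, leaving out 2% at each end. Per the labels' protocols, a Qiagen RNeasy micro kit gave the RNA, NuGEN Ovation V2 amplified it and biotin marked it. Tools named in the submitters' processing notes are Transcriptome Analysis Console and Affymetrix Expression Console, and how probes were summarized is not given in the sources used here. Of 45101 probe sets, 34945 had 1 gene symbol in the platform annotation, 932 several and 9160 none, and 64 were controls. The probe set with the highest mean log2 signal stood for each of 18193 genes.

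Values of log2(signal + 1) were computed from the deposited intensities and fitted with limma 3.58.1 (R 4.3.3), with 4 groups in 1 model, eBayes with an intensity trend, two-sided tests and Benjamini-Hochberg adjustment over all genes at 0.05. The fit was tested on simulated data. A signal at or under the 95th percentile of 27 bacterial control probe sets of its array counted as background. Depth has no meaning for arrays, and their number limits the precision.

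The 45 genes and all lists were chosen with earlier results of these data known. Per-array signals are given for the brightest gene of each role and the genes with the most extreme changes in each comparison. Of other mitosis genes, up to 2 falls and 2 rises per comparison are named. Same-numbered arrays of different groups gave little sign of pairing, with r of -0.0665 to 0.0493 over 30 pairs. These r are not those of whole signals, which were 0.893 or higher within groups. The own number was the best match in 8 of the 30 pairs, which does not exclude a pairing. The main fit has no block. Alternatives are given in the closing section.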

Additional observations from a re-analysis of the deposited data

Results flagged for a closer look

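Single arrays that stood apart by Dixon's test were 4 among 124 groups of 5 values, where chance gives about 1 in 20. Spc24 had a signal of 1471.5 on 6-hour replicate 5, against 716 to 889.9 on the other 6-hour arrays. On the same array the mean of the checkpoint genes, relative to non-irradiated mice, was -1.94, with -1.37 to -1.28 on the others. The passenger complex mean was -1.82 on 24-hour replicate 1, with -1.67 to -1.62 on the others, and the mean of Mki67 and Top2a was 0.11 on non-irradiated replicate 5, with -0.03 to -0.02 on the others.

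The change against non-irradiated mice differed between times for many of the genes in the limma fit. Between 24 and 6 hours 1 gene was higher and 14 lower at 24 hours. Among the genes given in full, Espl1 differed by -2.08, Incenp by -0.84, Mki67 by -0.77, Nusap1 by -0.61, Spc24 by -0.56 and Smc4 by -0.52, while Aurkb was higher by 0.76 on the log2 scale. Relative to 24 hours 43 genes were higher and 0 lower at day 14, and the same counts, 43 and 0, held relative to 6 hours. Outside the probe sets used for the counts, 11 further probe sets of these genes were lower at day 14 than in non-irradiated mice.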

How the results depend on the processing

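The counts of 43 genes lower at 6 and 24 hours stayed at 41 to 43 and at 43 without single arrays. The counts of 43 higher at day 14 than at 24 and 6 hours stayed at 43. With the Gapdh covariate 41 genes were lower at 6 hours and 34 at 24 hours. At 2-fold the lower counts were 35 and 41. With the erythroid mean as a covariate the counts were 1 and 0 lower at 6 and 24 hours, 0 higher and 2 lower at 24 against 6 hours, and 0 and 4 higher at day 14 against 24 and 6 hours. That covariate is nearly the group itself (98.1% of its variance between groups), so such a fit has little left to test: the median standard error of the 45 genes was 0.824 and 1.17 at 6 and 24 hours, against 0.219 without it, while the median changes were -1.30 and -1.71. Day 14 against non-irradiated mice gave 15 higher and 2 lower, and 8 to 11 higher and 2 lower without single arrays. Higher counts there were 5 with quantile normalization, 41 with median centring, 30 with only the 2 groups, 6 at an adjusted p of 0.01 and 1 at 2-fold. With median centring 45.1% of all genes were called higher. Lower counts were 0 with centring, 4 with all probe sets of a gene averaged, 1 at 0.01 and 1 at 2-fold. For 24 against 6 hours, the 1 higher call became 2 with centring or without _x_at and _s_at probe sets, and 0 with no trend, only the 2 groups, 0.01 or 2-fold, and 0 to 1 without single arrays. The 14 lower became 7 with centring, 5 with only the 2 groups, 7 at 0.01, 1 at 2-fold, 3 with the Gapdh covariate and 9 to 16 without single arrays. With the Gapdh covariate 1 gene was lower at day 14 than at 6 hours.

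With centring, the median changes against non-irradiated mice were -1.22 (6 hours), -1.42 (24 hours) and 1.35 (day 14). They were -1.57 at 6 hours and 0.26 at day 14 with quantile normalization, and -1.75 at 24 hours and 0.18 at day 14 with the mean of probe sets. The 24 against 6 hour median was -0.17 with quantile normalization and -0.12 with centring. Day 14 against 24 hours gave 2.73 with centring and 1.98 with the mean of probe sets, and day 14 against 6 hours 2.56, 1.69 and, with quantile normalization, 1.84.

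Changes that reversed were the following, and the cause was not tested beyond the construction of each setting. With centring, Mki67 at day 14 was 0.53, the median of Mki67 and Top2a at day 14 was 0.87, Pttg1 at 24 hours 0.20, and Cep55 0.31 at 24 hours and 0.33 at day 14 against 24 hours. With quantile normalization, Cep55 was 0.0751 at 24 hours and 0.0242 at day 14 against 24 hours, and Pttg1 -0.0889 at day 14 against 6 hours. Without _x_at and _s_at probe sets, Bub3 at 6 hours was 0.14 and Pttg1 at 24 hours 0.78. With the mean of probe sets, Bub3 at day 14 was -0.61 and Aurka -0.002. With the Gapdh covariate, 24 against 6 hours gave 0.48 for Incenp, 0.56 for Nusap1 and 0.0864 for Smc4, Kif15 was -0.26 at day 14 against 6 hours, and Cep55 0.27 at day 14 against 24 hours. With the erythroid covariate, Kif4 was 1.02 at 6 hours, 2.16 at 24 hours, -1.52 at day 14 against 24 hours and -0.38 against 6 hours. With that covariate Pttg1 was -0.45 at day 14 against 6 hours, with 0.15 (6 hours) and 0.50 (24 hours) against non-irradiated mice, and Cep55 2.39 at 24 hours. Without single arrays Cep55 at 24 hours ranged over -0.22 to 0.11, above 0 without 24-hour replicate 5 (0.11) or non-irradiated replicate 2 (0.10).

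The replicate block left 43 lower at 6 and at 24 hours and 43 higher at day 14 against either time, and gave 12 higher and 2 lower at day 14 against non-irradiated mice. No count moved by more than 1.5 times with it. Over the genes given in full, other settings left 1022 of their changes on the same side of the threshold, with 141 weaker, 4 stronger and 24 reversed. A dim probe set limits the 6-hour values of Ndc80, Cenpn, Kif15 and Kif2c, each with 1 array at or under background.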
